A study of Mus musculus with 8 samples.

Results

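The comparison described here sets 2 pools of yolk sac cells that carried both an endothelial surface protein and an erythroid reporter (double positive) against 3 pools that carried the endothelial protein alone (endothelial). The libraries were chosen by their sorting gate as given in the sample titles, and they are 5 of the 8 libraries of the series. All pools came from the yolk sac of C57BL/6 mouse embryos at stage E11.5, and every group shared the genotype miR144/451+/GFP, in which 1 allele of the erythroid microRNA locus carries green fluorescent protein (GFP). Endothelial pools (replicates 1, 2 and 3) held 25 VE-Cadherin positive, GFP negative cells each, and double positive pools (replicates 7 and 8) held 24 VE-Cadherin positive, GFP positive cells each. The other 3 pools (erythroid, replicates 4, 5 and 6) held 25 VE-Cadherin negative, GFP positive cells each. They were fitted together with the compared pools, so they also entered the gene filter, the scaling and the estimate of the spread. Their levels are printed beside the results. RNA was read by Smart-seq2 with 14 cycles of PCR, a full-length method without molecular identifiers, so intervals and floors below cover counting error only. The labels do not say whether pools came from separate embryos, so p-values measure only the spread between pools, which may be technical.

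The yolk sac is the first site of blood formation in the mouse embryo. Its wall is built of an outer visceral endoderm, an epithelium that takes up and secretes nutrients and carrier proteins, and an inner mesoderm of vessels, first red cells, macrophages and mesenchyme. VE-Cadherin, encoded by Cdh5, joins endothelial cells to each other, and the microRNAs miR-144 and miR-451 are transcribed under the erythroid factor GATA1 in maturing red cells. Pools of cells sorted for both signals can therefore be examined for vessel, red cell and other transcripts, but not cell by cell.

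The reporter marks a single primary transcript that holds these microRNAs, whose mature forms are shown because the sort depended on their locus. Sequences are from RefSeq (build GRCm38.p6, chromosome 11, plus strand), with the seed, bases 2 to 8, in capitals.
mmu-miR-144-5p: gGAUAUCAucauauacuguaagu
mmu-miR-144-3p: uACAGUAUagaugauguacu
mmu-miR-451a: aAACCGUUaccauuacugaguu
No seed is shared among them. Counts at the annotated Mir144 (chromosome 11, 78073005 to 78073070) are those of longer transcripts over the locus, since Smart-seq2 does not read mature microRNAs. Mir144 stood at 0.661, 0.326 and 0.323 CPM (read counts normalised to effective library size) in endothelial replicates 1, 2 and 3 and at 22.0 and 28.5 CPM in double positive replicates 7 and 8. Both double positive libraries were above all endothelial libraries, 57.8-fold by the mean (log2 difference 5.73, SE 0.29, edgeR adjusted p = 7.25e-06), and the erythroid mean was 338 CPM. Mir451a had 0 counts in every library. A GFP transcript was not analysed here.

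In what follows, values are CPM on effective library sizes, given in the order of endothelial replicates 1, 2 and 3 and then double positive replicates 7 and 8. A fold is the ratio of mean CPM, a log2 difference is that of the fit, and a gene passed where its p-value in edgeR's quasi-likelihood fit, Benjamini-Hochberg adjusted, was under 0.05. Where a population had 0 counts, the fold was taken against a floor of 3 counts over that population and is written as "at least".

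Endothelial libraries held 3723128 to 4439165 counts each, and double positive replicates 7 and 8 held 4637930 and 4818074. A count was seen for 11744 to 11884 genes in endothelial and for 14059 and 13980 genes in double positive libraries. Embryonic globins took 8.85% and 14.0% of the counts in double positive replicates 7 and 8, and 54.5% to 56.5% in erythroid libraries. Several features set single libraries apart. Endothelial replicate 2 held the most macrophage transcripts, that list summing to 5004 CPM against 1904 and 2063 CPM in replicates 1 and 3, and among double positive libraries replicate 8 held more globin. Leaving out double positive replicate 7 or 8 left 838 and 696 higher genes and 219 and 281 lower genes. Without endothelial replicate 1, 2 or 3 the lower genes numbered 502, 666 and 549.

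Of 12136 genes tested, 1776 were higher (14.6%) and 840 were lower (6.92%) in the double positive libraries, together 21.6%. The count of members called in each gene list below is to be read beside these shares. The libraries did not overlap for 32.9% of genes with both double positive values above and for 24.6% with both below, together 57.5%. The higher genes were of mixed origin by their erythroid level. Among the 1776, the erythroid mean was at or above the double positive mean for 411, and under 10% of it for 799, while 607 had 0 erythroid counts. Of the 840 lower genes, 424 had 0 erythroid counts. By the fitted log2 difference, which is no bound against 0 counts, 873 higher genes and 193 lower genes were past 10-fold. Of all higher genes 586 had 0 endothelial counts, and of all lower genes 32 had 0 double positive counts. The split depended on the scaling and the test. Genes higher made up 67.9% of those called in the main fit, 61.1% with RLE factors, 53.5% under DESeq2, which uses another test too, and 37.0% with library size alone, which moved the median of all genes by -0.63 on the log2 scale. None of the 2616 called genes was called in the opposite direction by any alternative.

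**Figure D1:**
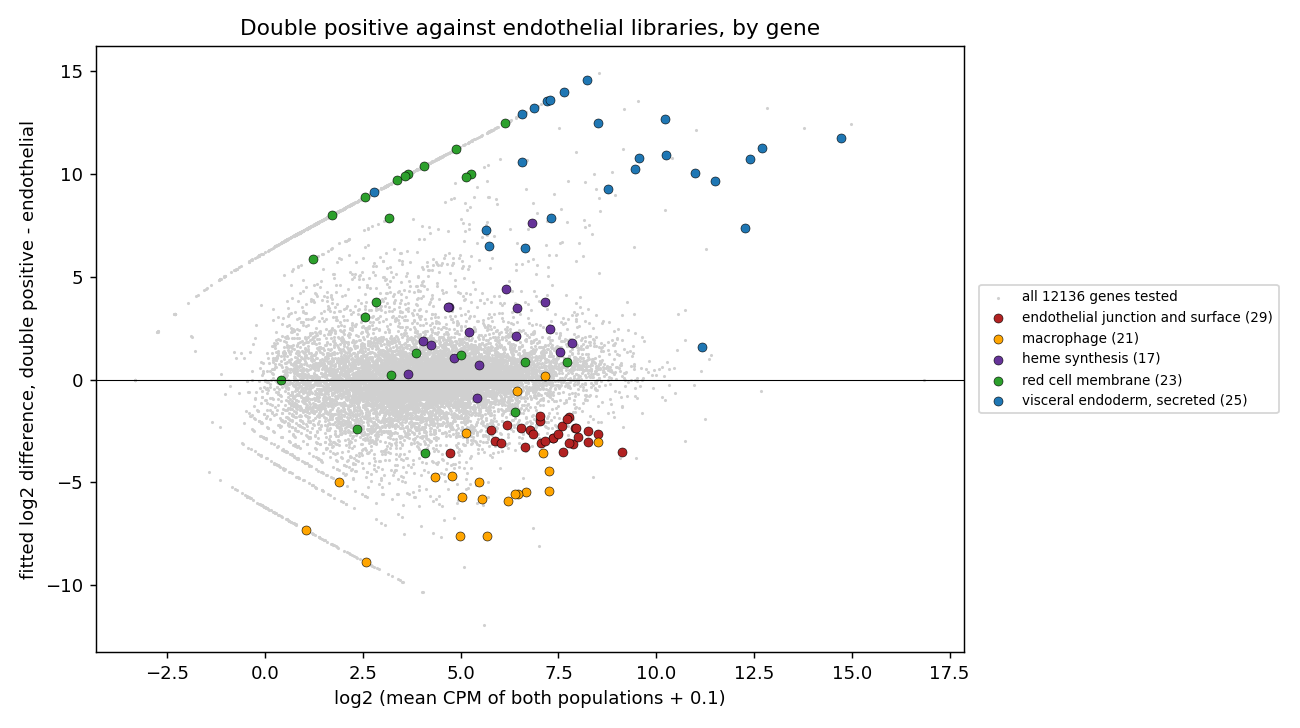
Log2 difference of each tested gene (double positive minus endothelial, vertical axis) against its mean CPM over both populations (horizontal axis, log2 scale), with gene groups in colour. Most visceral endoderm, heme and red cell membrane genes lie above 0, and the vessel genes and most macrophage genes lie below it.

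Vessel surface genes were lower in the double positive libraries as a group, and by similar amounts. In the list of endothelial junction and surface genes, 28 of 29 tested members fell and none rose, beside 6.92% lower over all genes. In all 29 both double positive values were below all endothelial values, as they were for 24.6% of all genes tested. The list's median log2 difference was -2.64, beside 0.06 over all genes tested. No member was absent, and levels ran from 8.38% to 29.3% of the endothelial mean with a median of 16.0%. In pools, fewer cells of a type and less RNA per cell cannot be told apart.

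Cdh5 (chromosome 8, 104101613 to 104144504), which encodes the sorted protein, stood at 233, 173 and 220 CPM in endothelial and at 45.9 and 56.0 CPM in double positive libraries. Both double positive libraries were below every endothelial library, 4.09-fold by the mean (log2 difference -2.03, SE 0.25, edgeR adjusted p = 0.00201), and the erythroid libraries were at 0. By percent of the endothelial level, 24.4%, Cdh5 ranked 4 from the top among the 29. Pecam1, an adhesion receptor at endothelial contacts, stood at 453, 309 and 499 CPM against 44.2 and 52.6 CPM, 8.70-fold lower (edgeR adjusted p = 0.000558). Plvap, which forms the diaphragms of endothelial pores, was at 1243, 791 and 1066 CPM against 73.8 and 105 CPM, 8.67% of the endothelial mean (edgeR adjusted p = 0.000358). The groups were far apart for both genes, and neither had erythroid counts.

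The receptors through which vessel cells read growth factors fell in the same range. Kdr, the main VEGF receptor, stood at 406, 230 and 223 CPM against 30.8 and 49.7 CPM (7.12-fold lower, edgeR adjusted p = 0.00351). Tek, the angiopoietin receptor, stood at 431, 305 and 439 CPM against 39.6 and 52.2 CPM (8.53-fold lower, edgeR adjusted p = 0.000493), and its relative Tie1 at 183, 141 and 216 CPM against 15.1 and 21.8 CPM (9.77-fold lower, edgeR adjusted p = 0.000931). Clec14a and Esam, a vessel lectin and a junction protein, were 8.13-fold and 7.02-fold lower (edgeR adjusted p = 0.000194 and 0.000442). Cd34, a sialomucin of vessels and progenitors, was 6.23-fold lower (edgeR adjusted p = 0.000710). Emcn, a sialomucin of veins and capillaries, did not pass: it stood at 512, 119 and 323 CPM against 27.7 and 106 CPM (edgeR adjusted p = 0.0819, but 0.0371 with library size alone and 0.0484 without replicate 2). Its endothelial values were widely spread and replicate 8 was close to endothelial replicate 2.

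**Figure D2:**
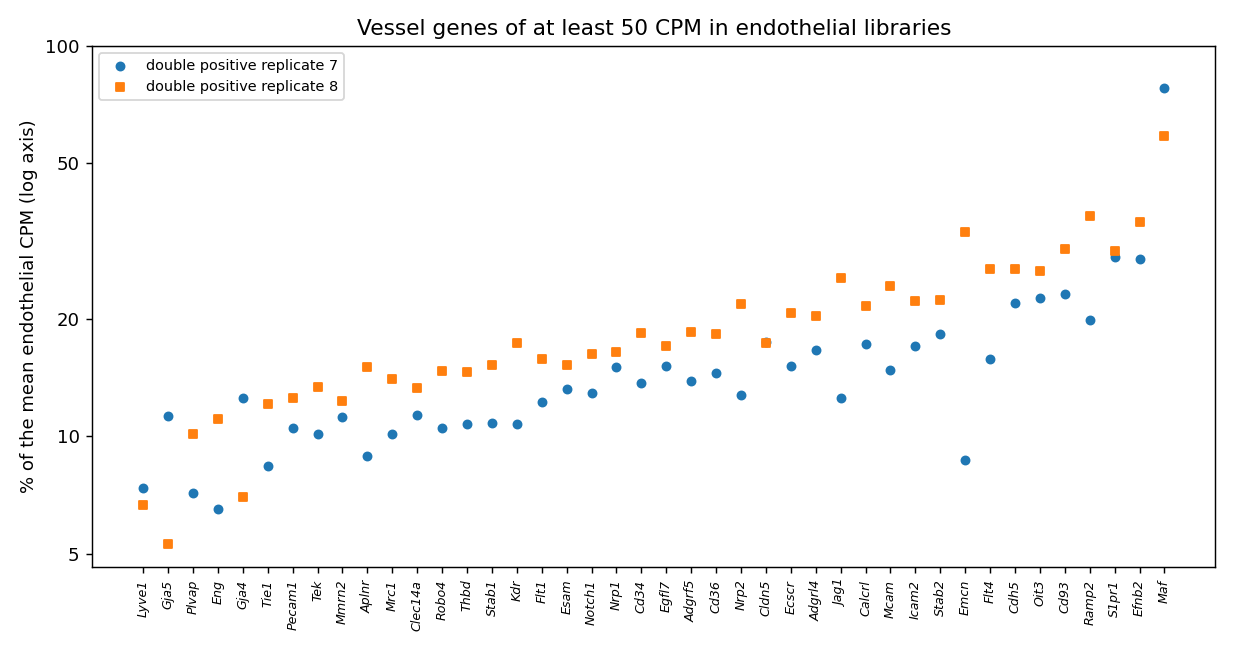
Level of each of 42 vessel genes in double positive replicates 7 and 8 as a percentage of the mean endothelial CPM (log axis), ordered by their mean, for genes with at least 50 CPM in endothelial libraries. Values run from 6.50% to 78.3% in replicate 7 and from 5.27% to 59.0% in replicate 8, and replicate 8 is the higher for most genes, with Lyve1, Gja5, Gja4 and Maf among the exceptions.

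Of 21 endothelial transcription factors tested, 9 fell, none rose and 12 did not pass (median log2 difference -1.96), but only 3 fell without replicate 7 and 3 without replicate 8. Among all genes tested, 6.92% were lower and 14.6% higher. Elk3, an ETS factor, stood at 177, 171 and 194 CPM against 31.9 and 44.0 CPM, 4.76-fold lower (edgeR adjusted p = 0.00144). The ETS factor Fli1 was 4.93-fold lower (edgeR adjusted p = 0.00529, but 0.0508 and 0.0518 without replicate 7 or 8). Sox17, of the SOXF group that patterns arteries, was 8.81-fold lower (edgeR adjusted p = 0.00548, and 0.0534 without replicate 8). Its relative Sox18 was 4.68-fold lower (edgeR adjusted p = 0.00608, and 0.0511 without replicate 7). Lyl1 and Lmo2, which act in vessels and in blood, were 4.20-fold and 2.55-fold lower (edgeR adjusted p = 0.00154 and 0.0186), and Lmo2 lost its call with limma-voom (adjusted p = 0.0635) and without replicate 7 or 8 (edgeR adjusted p = 0.170 and 0.0847). Erg, another ETS factor, stood at 19.2, 15.5 and 13.7 CPM against 6.12 and 5.30 CPM, and Gata2 at 6.74, 8.80 and 24.9 CPM against 2.29 and 4.89 CPM. For both the groups did not overlap, and neither passed (edgeR adjusted p = 0.183 and 0.232), though Erg did under 3 alternatives (adjusted p 0.0426 to 0.0476).

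Yolk sac vessels are rich in scavenger receptors of the kind found in liver sinusoids, and 6 of 8 members of this list fell (median log2 difference -2.45). Lyve1, a hyaluronan receptor, stood at 1083, 963 and 951 CPM against 73.4 and 66.6 CPM. It fell by 14.3-fold (log2 difference -3.83, SE 0.18, edgeR adjusted p = 2.98e-05), with a narrow spread in both groups. Stab2, which also binds hyaluronan, stood at 1030, 953 and 858 CPM against 173 and 212 CPM (4.92-fold lower, edgeR adjusted p = 0.000232). The fatty acid receptor Cd36 and the mannose receptor Mrc1 were 6.10-fold and 8.26-fold lower (edgeR adjusted p = 0.000358 and 0.000582), and Mrc1 is also a macrophage gene. The members that did not pass were Maf and Fcgr2b, named after their values were seen.

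In the arterial and Notch list 6 of 14 fell, none rose and 8 did not pass (3 fell without replicate 7, 2 without replicate 8), and in the venous list 4 of 5 fell (2 without replicate 1, 3, 7 or 8). Beside both lists, 6.92% of all genes tested were lower. Nrp1, an arterial semaphorin and VEGF co-receptor, stood at 207, 197 and 221 CPM against 31.5 and 34.4 CPM (6.33-fold lower, edgeR adjusted p = 0.000378). The arterial connexins Gja5 and Gja4 were 12.2-fold and 10.2-fold lower (edgeR adjusted p = 0.00715 and 0.00855), and each lost its call without replicate 8 (edgeR adjusted p = 0.0515 and 0.0651). Notch1 stood at 95.5, 54.6 and 122 CPM against 11.7 and 14.7 CPM (edgeR adjusted p = 0.00733, and 0.0634 without replicate 7). Its arterial ligand Dll4 stood at 40.1, 11.7 and 81.9 CPM against 5.35 and 4.28 CPM. Dll4 passed narrowly (edgeR adjusted p = 0.0463) and did not pass with limma-voom or without replicates 1, 3, 7 or 8 (adjusted p 0.0985 to 0.250).

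On the venous side, Aplnr, the apelin receptor, stood at 269, 184 and 262 CPM against 21.2 and 35.7 CPM (8.37-fold lower, edgeR adjusted p = 0.00140). Flt4, the VEGF-C receptor, was 4.68-fold lower (edgeR adjusted p = 0.00471). Both Aplnr and Flt4 are also in the junction and surface list, so their falls were already counted there. Ephb4, the venous Eph receptor, and the co-receptor Nrp2 were 4.10-fold and 5.79-fold lower (edgeR adjusted p = 0.0196 and 0.0198), and both lost their calls without replicate 1, 3, 7 or 8 (edgeR adjusted p 0.0591 to 0.152). Nr2f2, which encodes the venous factor COUP-TFII, stood at 42.0, 9.45 and 23.3 CPM against 15.7 and 29.1 CPM. Its groups overlapped (edgeR adjusted p = 0.915), and the sign of its difference turned when replicate 1 or 7 was left out.

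In the BMP and TGF-beta list 3 of 18 members were higher, near the 14.6% over all genes, and 4 were lower, against 6.92% (none higher without replicate 8, and 2 lower without replicate 1, 3 or 7). Acvrl1, an endothelial BMP receptor, stood at 98.6, 108 and 94.0 CPM against 8.22 and 7.74 CPM (12.6-fold lower, edgeR adjusted p = 0.000529), and its co-receptor Eng was 11.4-fold lower (edgeR adjusted p = 0.000784). Among their transcriptional targets, Id3 was lower and Id2 higher. The list members Id1, Smad6 and Smad7, named after their values were seen, did not pass. Id3 stood at 307, 160 and 319 CPM against 58.1 and 89.9 CPM (edgeR adjusted p = 0.0167, and 0.0528, 0.0504 and 0.115 without replicates 1, 3 and 7). Id2 went the other way, at 59.2, 68.4 and 63.5 CPM against 323 and 385 CPM (5.56-fold higher, edgeR adjusted p = 0.00711, and 0.0704 without replicate 8).

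Basement membrane genes, which encode the sheet under endothelium and epithelium, fell for 7 of 15 members (3 without replicate 7, 1 without replicate 8). The share lower over all genes was 6.92%. Sparc, a matrix-binding glycoprotein, stood at 1349, 837 and 1393 CPM against 397 and 378 CPM, 3.08-fold lower (edgeR adjusted p = 0.00552). The laminin chain gene Lama4, the collagen gene Col18a1 and the perlecan gene Hspg2 were 5.74-fold, 4.33-fold and 4.12-fold lower (edgeR adjusted p = 0.00727, 0.00972 and 0.00982), and all 3 lost their calls without replicate 7 or 8 (edgeR adjusted p 0.0583 to 0.0934).

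The next list held regulators of hemogenic endothelium, the vessel cells that give rise to blood, and of progenitors. Runx1, the factor needed for that transition, stood at 5.16, 6.84 and 2.58 CPM against 1.15 and 0.611 CPM, both double positive values below the endothelial ones (edgeR adjusted p = 0.298). Myb had 0 counts in all 8 libraries, and Gfi1 was seen in endothelial replicate 1 alone, at 1.06 CPM. Kit, the stem cell factor receptor, stood at 28.4, 11.1 and 59.1 CPM against 2.87 and 5.09 CPM and missed the threshold (edgeR adjusted p = 0.0528). It passed under 7 alternatives, among them DESeq2 (adjusted p = 0.00377) and RLE factors (edgeR adjusted p = 0.0467). Of 15 members tested, Gfi1b was the single one to rise and 4 fell, or 2 without replicate 7: Spi1, Ptprc, Itga2b and Cd44. Over all genes tested, 14.6% were higher and 6.92% were lower. Spi1 and Ptprc are also expressed by macrophages, whose genes are described below. Gfi1b, a repressor of red cell and platelet precursors, stood at 1.59, 0 and 0 CPM against 8.60 and 13.5 CPM (20.8-fold higher, edgeR adjusted p = 0.00787), and lost its call when only the 5 VE-Cadherin positive libraries were fitted (edgeR adjusted p = 0.0705).

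Red cell transcripts were the first of the large rises, led by the embryonic globins. Hbb-y, the main embryonic beta-type chain, stood at 9.92, 10.1 and 15.8 CPM in endothelial and at 47312 and 82630 CPM in double positive libraries. It was 5437-fold higher (log2 difference 12.41, SE 0.37, edgeR adjusted p = 6.27e-07), at 11.8% of its erythroid level. This and the later percentages of the erythroid level depend on the scaling. The scaling factors were 1.13 and 1.02 in double positive replicates 7 and 8 and 0.563 to 0.580 in erythroid libraries. Hbb-bh1, another embryonic beta-type chain, stood at 0.793, 1.47 and 2.42 CPM against 10948 and 18220 CPM, and Hba-x, the embryonic alpha-type chain, at 2.38, 8.80 and 6.30 CPM against 20232 and 36194 CPM (edgeR adjusted p = 6.27e-07 and 4.01e-06). Replicate 8 exceeded replicate 7 in all 3 chains, by 1.75-fold in their sum. None of the 3 passed with limma-voom (adjusted p = 0.998, 0.921 and 0.999 for Hbb-y, Hbb-bh1 and Hba-x), where their log2 differences were 12.33, 13.2 and 12.37. The 6 adult globin rows held 0 counts, an uncertain value, since reads of near-identical gene copies may be dropped in counting.

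The promoters of Hbb-y and Hba-x were chosen among higher members of the heme, globin, red cell membrane and maturation lists. Of the members whose promoter held a match to the motif of GATA1, they had the smallest edgeR adjusted p. Each is the 250 bases before the RefSeq start (GRCm38.p6), with the match to AGATAA or TGATAA, on either strand, in capitals. The window of Hbb-y is chr7:103853208-103853457 on the minus strand, and that of Hba-x is chr11:32276350-32276599 on the plus strand.
Hbb-y: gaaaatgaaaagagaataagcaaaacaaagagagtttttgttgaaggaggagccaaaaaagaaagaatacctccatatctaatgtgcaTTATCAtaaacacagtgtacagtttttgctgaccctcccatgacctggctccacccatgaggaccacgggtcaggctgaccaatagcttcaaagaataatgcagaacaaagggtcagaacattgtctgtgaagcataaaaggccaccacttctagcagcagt
Hba-x: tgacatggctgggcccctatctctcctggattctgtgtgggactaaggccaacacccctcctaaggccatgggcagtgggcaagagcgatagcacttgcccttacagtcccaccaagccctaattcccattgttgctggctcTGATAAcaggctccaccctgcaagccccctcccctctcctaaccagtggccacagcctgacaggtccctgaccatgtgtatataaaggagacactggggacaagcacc
Of the 39 higher members of the heme, globin, red cell membrane and maturation lists, 30 had a promoter sequence. Of these, 12 held such a match (40.0%), beside 17.0% of all 27025 RefSeq promoters. The share was 9.26% for the genes tested and 13.6% for all higher genes. The GATA1 match was found in 5 of 39 promoters of higher visceral endoderm genes (12.8%) and in none of 31 of lower endothelial genes. Other motifs were also scanned in the 30 promoters. A KLF match was in 60.0%, against 64.1% of the genes tested, and an ETS match in 33.3%, against 47.0%. Matches for HNF1 and HNF4 were absent. A match describes letters in the window and not a bound site.

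Enzymes and carriers of heme synthesis rose together. In the list 14 of 17 members were higher and none lower (median log2 difference 2.14), and with library size alone 11 were higher. Alas2, the erythroid form of the first enzyme, stood at 2.25, 0.978 and 0 CPM against 166 and 286 CPM, 210-fold higher (edgeR adjusted p = 6.00e-05). Alas1, the form used in other cells, stood at 56.9, 12.5 and 96.3 CPM against 38.6 and 21.4 CPM, with overlapping groups (edgeR adjusted p = 0.669). Slc25a37, the mitochondrial iron importer, stood at 15.1, 16.8 and 10.7 CPM against 162 and 157 CPM (edgeR adjusted p = 8.04e-06), and its partner Abcb10 was 11.6-fold higher (edgeR adjusted p = 2.24e-05). Fech, which inserts the iron, was 13.4-fold higher (edgeR adjusted p = 0.000165). The 14 members that rose stood at 4.82% to 73.7% of their erythroid level, with a median of 10.1%.

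Of the red cell membrane list, 14 of 23 tested members rose and 3 fell. The median log2 difference was 5.40 with the 8 genes at 0 endothelial counts set to their bounds. Slc4a1, the anion exchanger, had 1 count over the endothelial libraries and stood at 68.0 and 84.4 CPM in double positive ones (1511-fold, 95% counting interval 270 to 59740, edgeR adjusted p = 1.22e-06). Rhd, of the Rhesus complex, had 1 endothelial count and its partner Rhag none, with 46.3 and 71.7 CPM of Rhag in double positive libraries (edgeR adjusted p = 5.10e-06 for Rhd and 2.09e-05 for Rhag). Ermap, a red cell adhesion protein, was at least 136-fold higher (edgeR adjusted p = 2.09e-05). The members that fell were Gypc, Aqp1 and Slc14a1, the last pair named after their values were seen, and 1 fell without replicate 7 or 8. Gypc, a glycophorin of broad expression, stood at 111, 112 and 154 CPM against 33.1 and 51.2 CPM (2.99-fold lower, edgeR adjusted p = 0.00222). The 14 that rose stood at 2.72% to 11.2% of their erythroid level, with a median of 5.17%.

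The erythroid transcription factors were mixed. Of 16 tested, 4 rose and 2 fell, beside 14.6% higher and 6.92% lower over all genes. Those that rose were Klf1, Gata1, Nfe2 and Gfi1b. Klf1, the factor that drives the beta-type globins, stood at 0, 0 and 0 CPM against 25.6 and 32.0 CPM (at least 191-fold higher, edgeR adjusted p = 1.02e-05), beside 764 CPM in erythroid libraries. Gata1, the master regulator of the lineage, stood at 0, 0 and 0 CPM against 13.2 and 14.9 CPM (at least 93.0-fold higher, edgeR adjusted p = 5.49e-05), beside 288 CPM. Nfe2 stood at 0, 3.10 and 0 CPM against 12.6 and 27.7 CPM (edgeR adjusted p = 0.0120), and did not pass with DESeq2 (adjusted p = 0.0829), with the 5 VE-Cadherin positive libraries alone or without replicate 8 (edgeR adjusted p = 0.0650 and 0.0848). Tal1, active in vessels and blood, stood at 12.2, 10.4 and 1.78 CPM against 12.6 and 12.0 CPM (edgeR adjusted p = 0.540). Zfpm1, the partner of GATA1, overlapped between groups at 1.32, 1.30 and 4.85 CPM against 1.91 and 1.63 CPM (edgeR adjusted p = 0.736). The members that fell were Lmo2 and Ldb1, the latter named after its values were seen, and none fell without replicate 7 or 8.

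Of 8 erythropoietin signalling and survival genes, 1 fell and 7 did not pass, against 14.6% higher and 6.92% lower over all genes. Epor, the erythropoietin receptor, stood at 6.48, 12.9 and 23.6 CPM against 10.1 and 10.4 CPM, beside 219 CPM in erythroid libraries. Its groups overlapped (edgeR adjusted p = 0.539), and its sign turned without replicate 3. Cish, a feedback gene of the pathway, stood at 8.99, 12.4 and 2.58 CPM against 23.3 and 20.4 CPM, and the signal carrier Stat5b at 4.76, 7.98 and 8.72 CPM against 16.4 and 13.7 CPM. Both lay above without overlap and neither passed (edgeR adjusted p = 0.160 and 0.148). Bcl2l1, a survival gene that erythropoietin raises, was the one past the test, at 50.1, 44.3 and 28.1 CPM against 19.1 and 14.3 CPM (2.45-fold lower, edgeR adjusted p = 0.0143, and 0.129 without replicate 8; 0.0578 with limma-voom).

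Iron handling genes were higher for 8 of 19 tested members, beside 14.6% over all genes. The 1 lower member, beside 6.92% over all genes, was Hfe, named after its values were seen. With library size alone 4 were higher and 2 lower. Among the 8 was Trf, which is also in the list of secreted visceral endoderm proteins described below. Trf, the plasma iron carrier that visceral endoderm secretes, stood at 22.5, 113 and 45.1 CPM against 11110 and 8539 CPM (163-fold higher, edgeR adjusted p = 0.000118), and its erythroid mean was 0.106 CPM. Tfrc, the receptor that brings transferrin into cells, stood at 37.4, 45.5 and 31.2 CPM against 99.8 and 128 CPM (3.00-fold higher, edgeR adjusted p = 0.00109). The ferritin chain gene Fth1 was 3.75-fold higher (edgeR adjusted p = 0.000495). Slc40a1, the iron exporter, stood at 139, 216 and 115 CPM against 163 and 134 CPM, with overlapping groups (edgeR adjusted p = 0.888) and a sign that turned without replicate 2 or 8.

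Genes of the last steps of red cell maturation rose for 8 of 15 members, and for 5 without replicate 8. The share higher over all genes was 14.6%. Hemgn, a nuclear protein of red cell precursors, stood at 0, 0 and 0 CPM against 115 and 196 CPM (at least 1029-fold higher, edgeR adjusted p = 1.63e-05). Trim10, needed for terminal erythroid differentiation, was at least 79.4-fold higher (edgeR adjusted p = 4.37e-05). Antioxidant genes that are active in red cells and elsewhere rose less: Gpx1 by 5.29-fold and Prdx2 by 5.42-fold (edgeR adjusted p = 5.36e-05 and 0.000136).

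**Figure D3:**
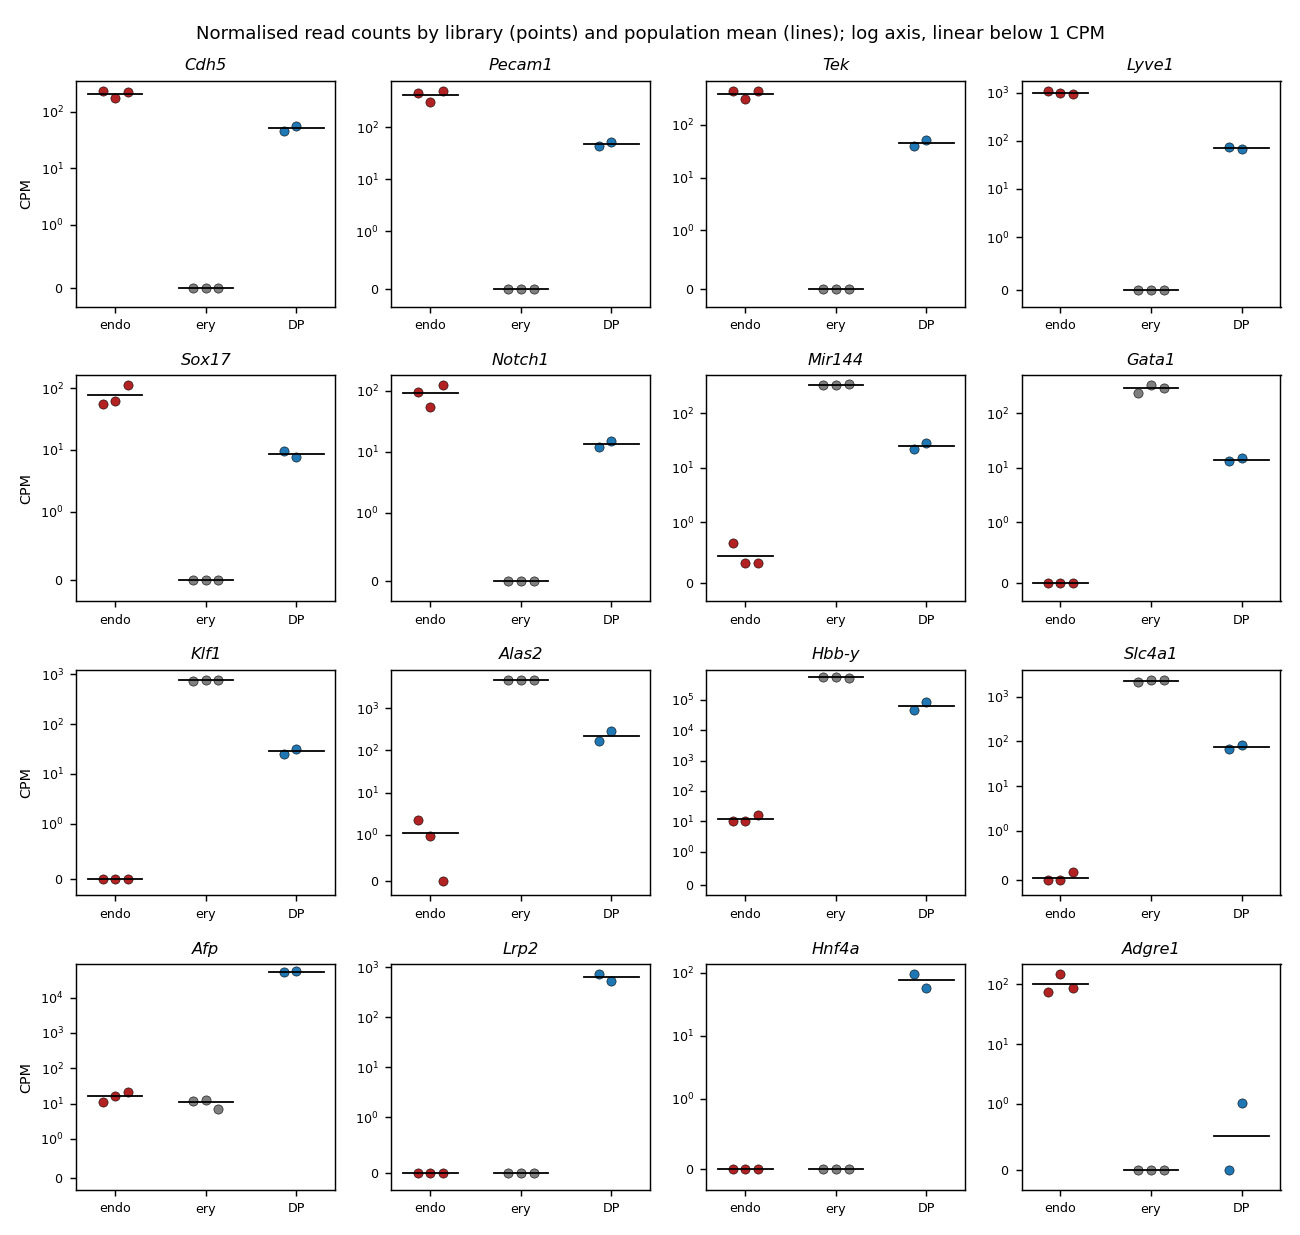
CPM of selected genes in each library (log axis, linear near 0), with endothelial (endo), erythroid (ery) and double positive (DP) libraries as points and each population's mean as a line. Vessel genes in double positive libraries lie between the erythroid and endothelial levels, red cell genes lie between the endothelial and erythroid levels, and visceral endoderm genes are highest in the double positive libraries.

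Genes of visceral endoderm also rose by large amounts. Of the secreted protein list 25 of 25 tested members rose, and of the uptake and epithelium list 18 of 20, with medians of 10.57 and 9.32 on the log2 scale when genes at 0 endothelial counts were set to their bounds. The secreted list summed to 751, 2186 and 844 CPM in endothelial, to 115318 and 112503 CPM in double positive and to 17.9 to 29.2 CPM in erythroid libraries. Both double positive libraries therefore carried these transcripts, at nearly equal levels. Their part in the other differences, and whether the double positive pools held other cells or doublets, was not tested. Every double positive value here is that of a sorted pool.

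Among carriers and plasma proteins, Afp, the fetal albumin, stood at 10.7, 16.5 and 21.0 CPM against 53215 and 55464 CPM, 3384-fold higher (log2 difference 11.73, SE 0.37, edgeR adjusted p = 6.27e-07). Ttr and Rbp4, which carry thyroid hormone and retinol, were 1685-fold and 824-fold higher (edgeR adjusted p = 5.10e-06 and 1.71e-06). Apob, the structural protein of lipoproteins, had 2 endothelial counts and stood at 773 and 673 CPM in double positive libraries (7207-fold, 95% counting interval 1990 to 59520, edgeR adjusted p = 2.02e-06). In each case the erythroid mean was at most 10.7 CPM.

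Ranked by the fitted log2 difference, which against 0 counts is no bound, the 10 largest rises included 9 genes with 0 endothelial counts and 7 with 0 erythroid counts. Cldn6, an epithelial tight junction protein, stood at 0, 0 and 0 CPM against 761 and 735 CPM (at least 4958-fold higher, edgeR adjusted p = 7.62e-06). Lrp2 (megalin), an endocytic receptor of visceral endoderm, stood at 0, 0 and 0 CPM against 719 and 530 CPM, at least 4142-fold higher (edgeR adjusted p = 0.000101). Cubn, its partner cubilin, had 2 endothelial counts and stood at 1584 and 1377 CPM (14750-fold, 95% counting interval 4080 to 121800, edgeR adjusted p = 1.22e-06). The others were the protease inhibitors Serpina1b and Serpind1, the carriers Ambp and Gc, the ferritin receptor Timd2, the trefoil peptide Tff3 and Reep6, at least 1763-fold to at least 4000-fold higher. Reep6 was the exception by its erythroid level of 83.1 CPM. Folr1, a folate receptor, had 1 endothelial count and stood at 346 and 382 CPM. Lrpap1, the chaperone of these receptors, was already present in endothelial libraries at 60.9 to 90.8 CPM and rose by 8.71-fold (edgeR adjusted p = 3.27e-05). The uptake members that did not pass were Dab2 and Fcgrt, named after their values were seen.

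The factors of the endoderm program followed, with 6 of 10 tested members higher, but 1 without replicate 7 and 1 without replicate 8. Hnf4a stood at 0, 0 and 0 CPM against 95.2 and 56.9 CPM (at least 504-fold higher, edgeR adjusted p = 0.00165). Foxa2 and Gata4 also had 0 endothelial and 0 erythroid counts (edgeR adjusted p = 0.00695 and 0.0215), and lost their calls without replicate 7 or 8 (edgeR adjusted p 0.0604 to 0.254). Gata6, which vessels and mesoderm also express, stood at 13.1, 8.47 and 8.24 CPM against 8.98 and 4.48 CPM (edgeR adjusted p = 0.704). The members that fell, Sox17 and Hhex, are expressed in both endoderm and endothelium, and Hhex was 7.61-fold lower (edgeR adjusted p = 0.00684, and 0.0624 without replicate 7).

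Macrophage genes were among the largest falls. In the macrophage list 16 of 21 members fell and none rose, beside 6 without endothelial replicate 2, 8 without double positive replicate 7 and 9 without replicate 1 or 3. The list summed to 1904, 5004 and 2063 CPM in endothelial against 384 and 365 CPM in double positive libraries, and to 0 in erythroid ones. The median member stood at 2.81% of its endothelial mean, while Fcgr3, Maf and Mrc1, the first pair named after their values were seen, held most of the double positive sum. Adgre1, which encodes the F4/80 antigen, stood at 73.6, 148 and 85.6 CPM against 0 and 1.02 CPM, 201-fold lower (edgeR adjusted p = 0.00200). Of the 19 members that are not in the sinusoidal list, 13 had 0 counts in replicate 7 and 2 in replicate 8. Csf1r, which encodes the CSF1 receptor of macrophages, stood at 94.8, 488 and 173 CPM and kept 8.21% of its mean, with 22.4 CPM in replicate 7 and less in replicate 8 (edgeR adjusted p = 0.0166), and did not pass with limma-voom or without replicate 7 or 8 (adjusted p = 0.109, 0.0934 and 0.111).

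Among the 10 largest falls, Ccl3 was the single gene with 0 double positive counts, and 9 had 0 erythroid counts. Ccl3, a chemokine that recruits monocytes, stood at 108, 108 and 72.9 CPM against 0 and 0 CPM (at least 325-fold lower, edgeR adjusted p = 0.000358). Ccl2 stood at 142, 23.0 and 38.0 CPM against 0.191 and 0 CPM, from 1 count (739-fold, 95% counting interval 132 to 29210, edgeR adjusted p = 0.00644, and 0.0501 without replicate 8). The others were Fcrls, Adgre1, Spi1, Dok2, F13a1, Lst1, Rac2 and C5ar1, most of them genes of myeloid cells, at 64.3-fold to 278-fold lower. Endothelial replicate 2 was the highest endothelial library for each of these 8. Lst1 did not pass without replicate 7 (edgeR adjusted p = 0.0660). Of 11 chemokine and cytokine genes tested 6 fell, but 3 without replicate 7 and 1 without replicate 8.

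Of the megakaryocyte and platelet list, 3 of 8 tested members fell and none rose, beside 6.92% lower and 14.6% higher over all genes. Pf4, a platelet chemokine that yolk sac macrophages also express, stood at 476, 904 and 545 CPM against 0.956 and 47.9 CPM. Replicate 8 held nearly all of the double positive counts here, and the call (edgeR adjusted p = 0.0359) was lost without replicate 1, 2 or 3 (edgeR adjusted p = 0.0691, 0.0829 and 0.0740). Vwf, of platelets and vessels, was 8.90-fold lower (edgeR adjusted p = 0.00563). Of the granulocyte and mast cell list Hdc alone was tested, and it did not pass (edgeR adjusted p = 0.563).

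Mesenchyme and mesothelium genes were higher for 6 of 7 members, and for 2 without replicate 7 or without replicate 8. These 7 were the tested ones of 13 members, and 14.6% of all genes tested were higher. Pdgfra, Pdgfrb, Tbx18, Wt1, Upk3b and Cspg4 were left out by the filter on low counts. The list summed to 10.3 to 11.8 CPM in endothelial and to 385 and 339 CPM in double positive libraries. Col1a2, a fibrillar collagen chain, stood at 2.38, 4.89 and 1.29 CPM against 80.1 and 73.6 CPM (26.9-fold higher, edgeR adjusted p = 0.00140). Col3a1, Lum and Postn, other matrix genes, were 61.6-fold, 172-fold and at least 155-fold higher (edgeR adjusted p = 0.00629, 0.00746 and 0.00770). Col3a1 did not pass without replicate 7 (edgeR adjusted p = 0.0933), Postn without replicate 7 or 8 (0.0597 and 0.0879), and Lum with DESeq2 (adjusted p = 0.131) or without replicate 8 (edgeR adjusted p = 0.0604).

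**Figure D4:**
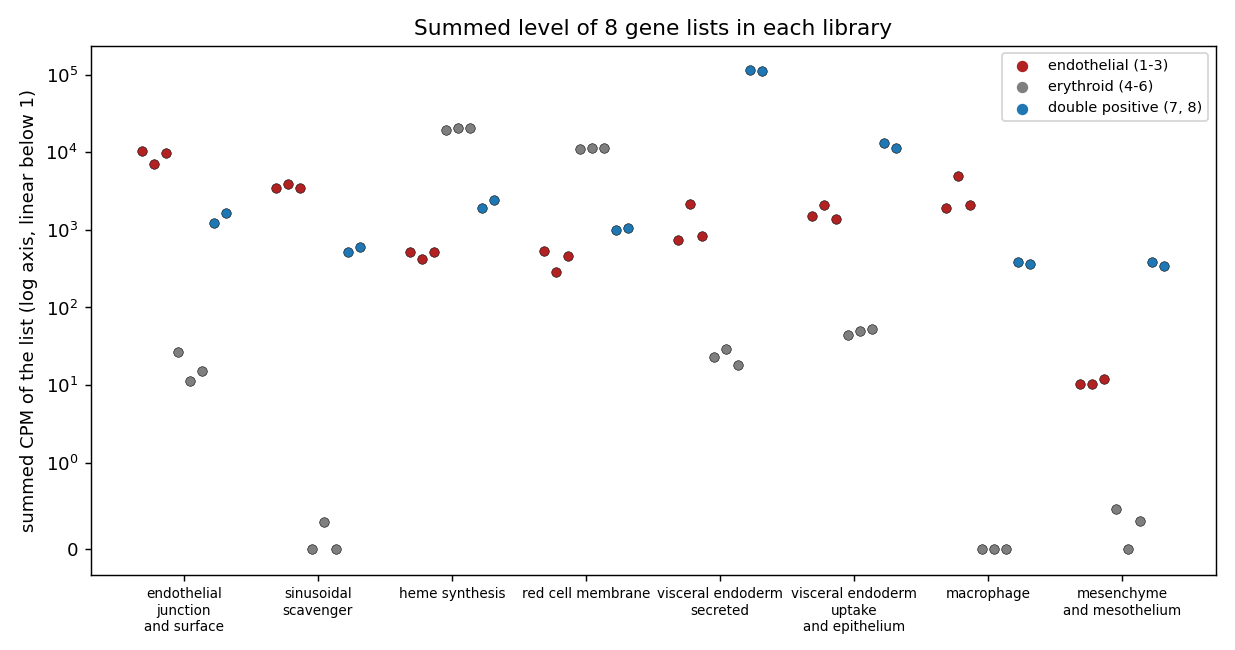
Summed CPM of 8 gene lists in each library (log axis, linear below 1), with endothelial, erythroid and double positive libraries as separate points. Double positive libraries hold vessel, red cell, visceral endoderm and mesenchyme sums at once, and their macrophage sums of 384 and 365 CPM lie below the endothelial range.

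Among metabolic genes, those of cholesterol synthesis stood out, 14 of 21 being higher and none lower (median log2 difference 2.23), with 12 higher under library size alone. Fdps and Fdft1, which build the isoprenoid chain and squalene, stood at 66.1, 44.2 and 97.3 CPM against 397 and 613 CPM and at 41.6, 31.6 and 73.2 CPM against 304 and 451 CPM. They were 7.30-fold and 7.74-fold higher (edgeR adjusted p = 0.000541 and 0.000710). Lss, which forms the first sterol ring, was 15.1-fold higher (edgeR adjusted p = 0.00121). In all 3 genes the double positive mean also exceeded the erythroid mean.

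Of 17 glycolysis genes 3 were higher and 2 lower, near the 14.6% and 6.92% over all genes (6 higher with limma-voom, and 1 lower without replicate 7 or 8). Slc2a3, a glucose transporter, stood at 5.82, 11.2 and 18.3 CPM against 199 and 113 CPM (13.2-fold higher, edgeR adjusted p = 0.00295), and Pkm, a pyruvate kinase gene, at 797, 784 and 793 CPM against 392 and 245 CPM (2.49-fold lower, edgeR adjusted p = 0.00272). Gapdh and Tpi1, common reference enzymes, were 2.39-fold and 2.59-fold higher (edgeR adjusted p = 0.000422 and 0.000710).

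The counts of cell cycle genes past the test depended on the scaling, and are set beside 14.6% higher and 6.92% lower over all genes. In the S phase list 1 of 18 was higher and 4 were lower, and 10 were lower with library size alone but 1 without replicate 7 or 8. Mcm3, of the replicative helicase, stood at 111, 143 and 142 CPM against 41.1 and 53.6 CPM (2.78-fold lower, edgeR adjusted p = 0.00735, and 0.0669 without replicate 7). In the G2 and M phase list Birc5 alone passed (log2 difference 0.63, edgeR adjusted p = 0.0457), and with library size alone its difference was -0.01 and 9 members were lower, as were 3 with RLE factors and 6 with DESeq2. Mki67, a proliferation marker, stood at 116, 126 and 122 CPM against 107 and 116 CPM, a difference within the spread of the libraries (edgeR adjusted p = 0.628), but -0.75 on the log2 scale with library size alone (edgeR adjusted p = 0.00664). Ccnd1, the cyclin of the early cycle, was 4.02-fold lower (edgeR adjusted p = 0.0109, and 0.0899 without replicate 7).

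Ribosomal protein genes were higher for 25 of 40 members, beside 14.6% over all genes, by small amounts (median log2 difference 0.58). With library size alone none was higher, 2 were lower and the median was -0.06, and the number higher was 14 with RLE factors, 9, 14 and 10 without replicates 1, 2 and 3, and 2 without replicate 8. Rps16 stood at 256, 279 and 265 CPM against 433 and 549 CPM (edgeR adjusted p = 0.00310, and 0.200 with library size alone). Of 19 immediate early and stress genes tested, 1 was higher, 2 were lower and 16 did not pass, against 14.6% higher and 6.92% lower over all genes. Hspa1a, an inducible chaperone whose near-identical copy Hspa1b makes its count uncertain, stood at 279, 444 and 410 CPM against 57.3 and 44.8 CPM (edgeR adjusted p = 0.000176), and Hsp90aa1 was 2.32-fold higher (edgeR adjusted p = 0.00181). Fos, an immediate early gene that dissociation can raise, stood at 207, 393 and 461 CPM against 119 and 116 CPM, without overlap and without passing (edgeR adjusted p = 0.0759). It passed with DESeq2 and limma-voom (adjusted p = 0.0115 and 0.0444) and with library size alone or the 5 VE-Cadherin positive libraries (edgeR adjusted p = 0.0239 and 0.0122).

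Imprinted genes moved in both directions, 5 of 18 higher and 5 lower (3 higher with library size alone or without replicate 7, and 2 or 3 lower without replicate 1, 3, 7 or 8). Phlda2, which restrains growth of extraembryonic tissue, stood at 0, 0.163 and 2.10 CPM against 555 and 610 CPM (772-fold higher, edgeR adjusted p = 0.000172). Peg10, a gene of retroviral origin active in placenta, was 16.9-fold higher (edgeR adjusted p = 0.000710). Mest, high in mesoderm, stood at 3745, 2440 and 2834 CPM against 359 and 400 CPM (7.92-fold lower, edgeR adjusted p = 0.000271). Of 12 ligands by which yolk sac layers signal, 1 was higher and 5 were lower (1 or 2 without replicate 1, 3, 7 or 8). Ihh, the hedgehog ligand that visceral endoderm sends to the mesoderm, was the one that rose, at 0, 0 and 0 CPM against 7.07 and 7.95 CPM (at least 49.8-fold higher, edgeR adjusted p = 0.0278, but 0.229 and 0.250 without replicate 7 or 8). Beside these imprinted and ligand counts, 14.6% of all genes tested were higher and 6.92% were lower. Igf1 stood at 136, 114 and 139 CPM against 9.18 and 28.1 CPM (6.95-fold lower, edgeR adjusted p = 0.00992). Vegfa stood at 1.72, 1.63 and 3.39 CPM against 17.0 and 7.95 CPM and did not pass (edgeR adjusted p = 0.117), but did with limma-voom (adjusted p = 0.0330) and with the 5 VE-Cadherin positive libraries (edgeR adjusted p = 0.0364).

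**Figure D5:**
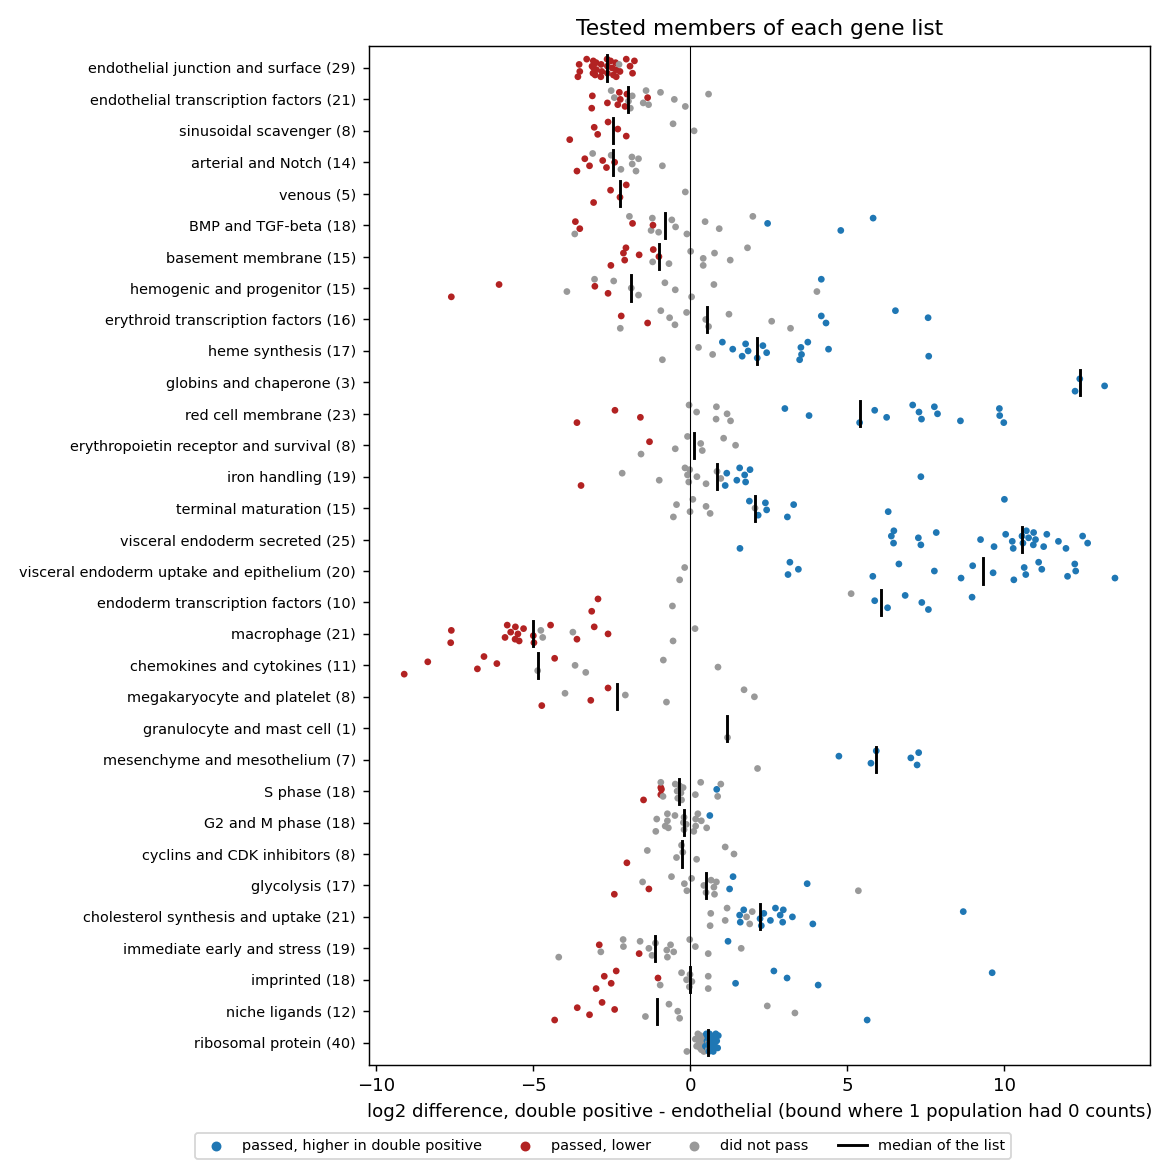
Log2 difference (double positive minus endothelial) of each tested member of the 32 gene lists, with the number tested in brackets and the list's median as a bar. Vessel, macrophage and chemokine lists lie to the left of 0, heme, red cell membrane and visceral endoderm lists to the right, and cell cycle and ribosomal protein lists close to it.

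The double positive libraries were also set beside each other, as a description without a test. Over 10333 genes with at least 10 counts in both, the median ratio of replicate 8 to replicate 7 was 0.994, and 49.2% of genes were higher in replicate 8. Replicate 8 was the higher for 28 of 29 endothelial surface genes (median ratio 1.34), for 18 of 21 red cell membrane genes (1.35), for 18 of 21 cholesterol genes (1.46) and for 39 of 39 ribosomal protein genes (1.34). It was the lower for most visceral endoderm uptake genes, 3 of 20 being higher (median ratio 0.873), and for most basement membrane genes, 3 of 15 being higher (0.796). The venous and sinusoidal scavenger lists leaned the same way, with 4 of 5 (1.7) and 5 of 7 genes (1.23) higher in replicate 8. Endothelial transcription factors, with 12 of 19 higher (1.02), and arterial and Notch genes, with 4 of 9 (0.80), did not share the excess. The ratio for 2 pools has no replicate check.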

How the data were processed

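The deposited table holds raw read counts per gene symbol, made by the authors with HTSeq on the mm10 build after FastQC, per the submitters' processing notes. The aligner, the annotation, the strand setting and tool versions were each not given in the sources used here. Columns were matched to samples by title. Of 24454 gene rows, 23337 matched a RefSeq symbol. The members and gene lists (32 lists, 533 genes, of which 532 matched a row) were chosen with earlier results of these data known.

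Counts were fitted in R 4.3.3 with edgeR 4.0.16: filterByExpr with a minimum count of 10 (12136 genes), TMM factors, a robust quasi-likelihood fit of all 8 libraries with 1 mean per population, and the double positive minus endothelial contrast, two-sided, Benjamini-Hochberg adjusted over all genes, threshold 0.05. CPM use TMM effective sizes and are not shares of a library. The fit was tested on simulated data. No replicate pair was identical. Named genes were the 10 largest rises and 10 largest falls past the test (at least 50 CPM in the higher population, no overlap of libraries), up to 4 members per list by adjusted p, and a set of genes read whatever their values. Alternatives used DESeq2 1.42.0, limma-voom (limma 3.58.1), other scalings and filters, the 5 VE-Cadherin positive libraries alone, and leaving out each library. Promoters and microRNAs are from RefSeq (GRCm38.p6), 1 promoter per symbol. Gene positions are from the same build. Some genes that the naming rule selects are not reported here.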

Additional observations from a re-analysis of the deposited data

How the results depend on the processing

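The number of higher genes, 1776 as reported, was 1118 with library size alone, and ran from 696 to 1597 when 1 library was left out. The number of lower genes, 840 as reported, was 1901 with library size alone, 1415 with DESeq2 and 1422 with the 5 VE-Cadherin positive libraries alone, and ran from 219 to 666 when 1 library was left out. Leaving out replicate 7 or 8 leaves 1 double positive library, which is then assumed to vary like the other groups. Over 162 named genes and 2097 values under the alternatives, 1946 kept their direction and their side of the threshold, 106 lost the call, 37 gained it and 8 changed sign. The changes of sign were of genes that did not pass or of Birc5: with library size alone Birc5 was at -0.01 and Tal1 at -0.05; leaving out 1 library gave Epor -0.84 to 0.08 (highest without replicate 3), Zfpm1 -0.80 to 0.41 (highest without replicate 3), Nr2f2 -0.68 to 0.44 (positive without replicate 1, and 0.23 without replicate 7) and Slc40a1 -0.27 to 0.21 (positive without replicate 2, and 0.04 without replicate 8). The cause was not tested. No paired analysis was possible because the replicate numbers, 1 to 8, are not shared between populations. On counts simulated for all 8 libraries, of 24 or 25 cells each, the fit recovered 32% of 4-fold and 64% of 16-fold changes. The simulated gene means were taken over all 8 libraries and not over the 5 compared ones, so these shares are a rough guide. A gene that did not pass may still differ.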
